A study of Oryza sativa with 6 samples.

Results

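The genes described here are 6 rice aquaporin genes, 3 of the tonoplast intrinsic proteins (TIP1-1, TIP2-2 and TIP4-1) and 3 of the nodulin-like intrinsic proteins (NIP1-1, NIP2-2 and NIP4-1). Each was taken by the identifier of its probe set and not by a threshold on its measured values, though earlier results of these data were known. They make up 6 of the 17905 genes that the platform annotation pairs with a probe set. There were 3 biological replicates per line, wild type or Epi-df, both of the japonica variety and grown in artificial soil to an age of 3 weeks. Plants of Epi-df are dwarfed and, by what is known of the line, carry an epigenetic allele of the Polycomb gene FIE1 that is active where the gene is normally silent. The labels give the tissue as seedling and do not say which organs were taken or how many plants made up a replicate. They name no other allele or treatment in either group.

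Aquaporins are membrane channels that let water and small uncharged solutes pass down their gradients. TIP proteins sit mostly in the membrane of the vacuole, where they let water in and out of the compartment that fills a growing plant cell. NIP proteins sit mostly in the plasma membrane and are better known for solutes such as silicic acid, boric acid, glycerol and arsenite than for water. TIP1-1 belongs to the gamma group of TIPs, TIP2-2 to the delta group and TIP4-1 to the epsilon group. NIP2-2 is the silicon channel Lsi6, known in rice for unloading silicon from the xylem of leaves, and NIP1-1 is known as a channel for arsenite. A role of NIP4-1 is not given here.

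The 6 genes are LOC4331608 (TIP1-1), LOC4340941 (TIP2-2), LOC4338163 (TIP4-1), LOC4328814 (NIP1-1), LOC4340558 (NIP2-2) and LOC4326119 (NIP4-1). All 6 names were found among the gene names of the paired locus. The probe sets of TIP2-2 and NIP2-2 carry the suffix _x_at, which marks sets in which some probes may also match other transcripts, so their signals may include those of related genes. That of TIP1-1 carries the suffix _a_at, which marks a set shared by transcripts of the same gene.

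The values are the authors' probe set intensities, without a unit. Median intensity over all probe sets other than controls lay between 108.1 and 114.5 on the 6 arrays, and Pearson correlations of log2 values across probe sets were 0.989 to 0.994 within the groups and 0.982 to 0.992 between them. Changes below are differences of log2(intensity + 16), Epi-df minus wild type, and ± after a change is the standard error. A gene was called changed at a Benjamini-Hochberg adjusted p under 0.05 in limma, over all 34355 tested probe sets, together with a change of at least 2-fold. With so few arrays the precision of each value is limited. The limma p-values weigh each difference against the spread between these arrays, which the fit moderates with that of all tested probe sets.

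None of the 6 genes was called, and all 6 had been tested. Of all tested probe sets 0.614% were called, 0.178% as higher and 0.437% as lower in Epi-df. Without the 2-fold threshold the members' count was again 0, against 1.79% of all tested probe sets, and at an unadjusted p under 0.05 it was 1, NIP2-2, against 14.4%. The changes ran from -0.03 for TIP4-1 to 0.24 for NIP2-2, with a median of 0.13, beside a median of 0.01 over all tested probe sets. Of the 6 changes 5 were above 0, as were 53.9% of those of all tested probe sets.

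**Figure D1:**
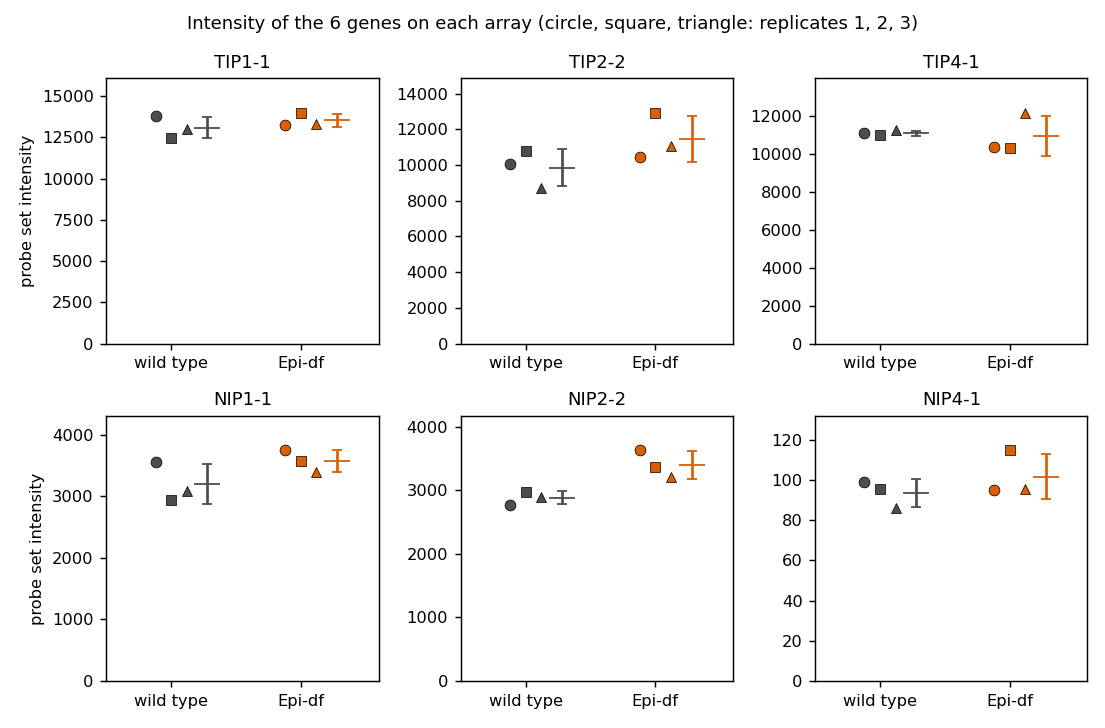
Probe set intensity (linear axis from 0, arbitrary units, a separate scale per gene) of TIP1-1, TIP2-2, TIP4-1, NIP1-1, NIP2-2 and NIP4-1 on the 3 wild type arrays (grey) and the 3 Epi-df arrays (orange), with the mean and SD of each group beside the points. The groups overlap for each gene but NIP2-2, whose Epi-df arrays (3205 to 3629) lie above its wild type arrays (2776 to 2980).

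The probe sets chosen for TIP1-1, TIP2-2 and TIP4-1 gave bright signals in both lines. TIP1-1, whose group is known for water transport into the vacuoles of growing and mature cells, had intensities of 13759, 12486 and 12987 on wild type replicates 1, 2 and 3. On Epi-df replicates 1, 2 and 3 they were 13252, 13970 and 13330. The ranges overlapped, with wild type replicate 1 above all but 1 of the Epi-df arrays. The means were 13077 ± 641 in wild type and 13517 ± 394 in Epi-df (SD, n = 3), a change of 0.05 ± 0.06 (limma adjusted p = 0.813). A further probe set of the same gene, with the suffix _x_at, gave a change of 0.07 ± 0.07 (limma adjusted p = 0.717), with values from 10536 to 11848 in wild type and from 11312 to 12090 in Epi-df. Both probe sets of TIP1-1 thus had their lowest value on wild type replicate 2 and their highest on Epi-df replicate 2.

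TIP2-2, of the group known for passing ammonia as well as water, read 10080, 10776 and 8717 on the wild type arrays. Its values on the Epi-df arrays were 10450, 12918 and 11080. The groups overlapped because wild type replicate 2 lay above Epi-df replicate 1. The means were 9858 ± 1048 and 11483 ± 1282 (SD, n = 3), which is 16.5% higher in Epi-df and a change of 0.22 ± 0.11 that did not pass the test (limma adjusted p = 0.421). The change rested in part on 2 arrays, the lowest and the highest. Leaving out wild type replicate 3 gave a change of 0.13 (limma adjusted p = 0.681), and leaving out Epi-df replicate 2 likewise gave 0.13 (limma adjusted p = 0.699).

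TIP4-1 stood at 11056, 10955 and 11215 on the wild type arrays, the narrowest wild type spread of the 6 genes, with an SD of 1.18% of the mean. On the Epi-df arrays it stood at 10324, 10277 and 12134, so that replicates 1 and 2 lay below the wild type arrays and replicate 3 above them. The change was -0.03 ± 0.08 (limma adjusted p = 0.933). Its direction turned when an array was left out, to 0.012 without Epi-df replicate 1 (limma adjusted p = 0.967) or 0.015 without replicate 2 of that line (limma adjusted p = 0.977). Leaving out Epi-df replicate 3, the high one, gave -0.10 (limma adjusted p = 0.475). Another probe set paired with the gene was dim, at 62.5 to 100.5 in wild type and 77.4 to 105.5 in Epi-df, and gave a change of 0.10 ± 0.16 (limma adjusted p = 0.858).

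Among the 3 NIP genes described here, NIP2-2 had the largest change. The intensities of this silicon channel gene were 2776, 2980 and 2894 in wild type. In Epi-df they were 3629, 3367 and 3205, so each Epi-df array lay above each wild type array. The means of 2883 ± 102 and 3400 ± 214 (SD, n = 3) differed by 17.9%. The change of 0.24 ± 0.07 had an unadjusted p of 0.0143 in limma and missed the threshold after adjustment (limma adjusted p = 0.188). The exact permutation test over the 6 arrays gave p = 0.1 (two-sided), the smallest p that 3 arrays against 3 allow. Groups that do not overlap were found for 1 of the 6 genes, against 19.6% of all tested probe sets in either direction and 9.82% with Epi-df higher (9.79% had Epi-df lower).

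NIP1-1, a gene of the arsenite-permeable group, had intensities of 3564, 2948 and 3082 in wild type. In Epi-df they were 3747, 3580 and 3394. Wild type replicate 1 lay within the range of the Epi-df arrays, and the other wild type arrays lay below it. The means were 3198 ± 324 and 3574 ± 177 (SD, n = 3) and the change 0.16 ± 0.09 (limma adjusted p = 0.493). Without wild type replicate 1 the change was 0.24, and without wild type replicate 2 it was 0.11 (limma adjusted p = 0.380 and 0.775).

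NIP4-1 was dim in both lines, at 99.2, 95.7 and 86 on the wild type arrays and 95, 114.8 and 95.4 on the Epi-df arrays. These values lie close to the mean intensity of 81.1 under which probe sets were left out of the test. Only Epi-df replicate 2 lay above the wild type range. The change was 0.10 ± 0.09 (limma adjusted p = 0.729). Leaving out Epi-df replicate 2 brought it to 0.02. No detection calls were used, so whether the transcript was present was not settled.

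The fit also gave an interval for the change of each probe set's signal. The 95% intervals of the fitted fold, Epi-df over wild type, were 0.937 to 1.14 for TIP1-1, 0.980 to 1.38 for TIP2-2 and 0.867 to 1.11 for TIP4-1. For the NIP genes they were 0.968 to 1.29 for NIP1-1, 1.04 to 1.33 for NIP2-2 and 0.921 to 1.25 for NIP4-1. All 6 intervals exclude a 2-fold change in either direction on this scale, which for the dim NIP4-1 understates the change. Of the 6, the interval of NIP2-2 was the 1 that did not include 1. These intervals are of probe set signals, take each gene by itself and are not adjusted for the number of genes tested. They do not bound the change of a transcript whose probe set is near background, as that of NIP4-1 may be, or compressed.

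**Figure D2:**
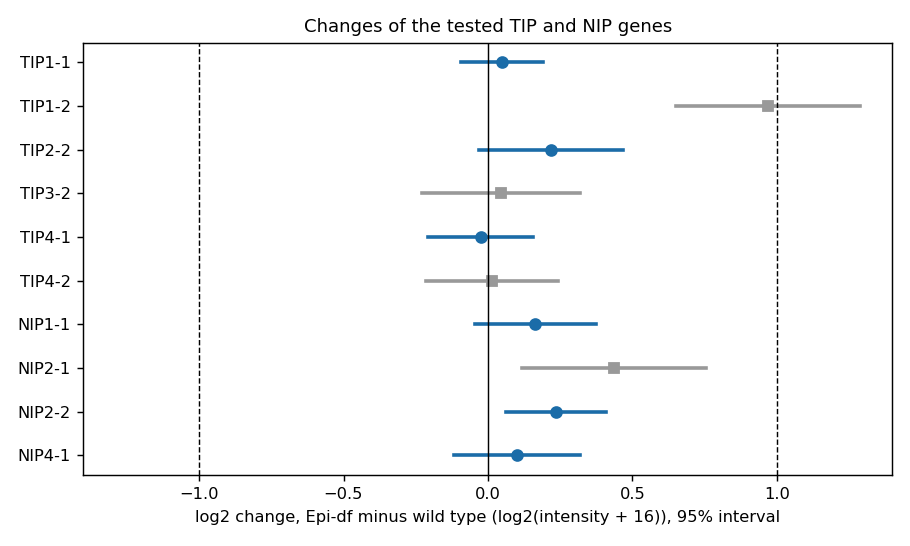
Log2 change of the 10 tested TIP and NIP genes, Epi-df minus wild type on the log2(intensity + 16) scale, with 95% intervals from the limma fit (blue circles, the 6 genes described here; grey squares, other TIP and NIP genes; dashed lines, a 2-fold change). The intervals of all 6 lie between the dashed lines, while that of TIP1-2 reaches beyond the upper one.

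The spread between replicates set the size of what could be seen. The SD within a group lay between 1.18% of the mean (TIP4-1 in wild type) and 11.2% (TIP2-2 in Epi-df), and standard errors of the changes lay between 0.06 and 0.11, beside a median of 0.10 over all tested probe sets. From the lowest to the highest of the 6 arrays, intensity differed 1.12-fold for TIP1-1, 1.18-fold for TIP4-1 and 1.48-fold for TIP2-2. For NIP1-1, NIP2-2 and NIP4-1 the ratio was 1.27, 1.31 and 1.33. The highest value fell on an Epi-df array in each of the 6 genes, on replicate 2 for TIP1-1, TIP2-2 and NIP4-1, on replicate 1 for NIP1-1 and NIP2-2 and on replicate 3 for TIP4-1. The lowest value fell on a wild type array in 5 of them and on Epi-df replicate 2 for TIP4-1.

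**Figure D3:**
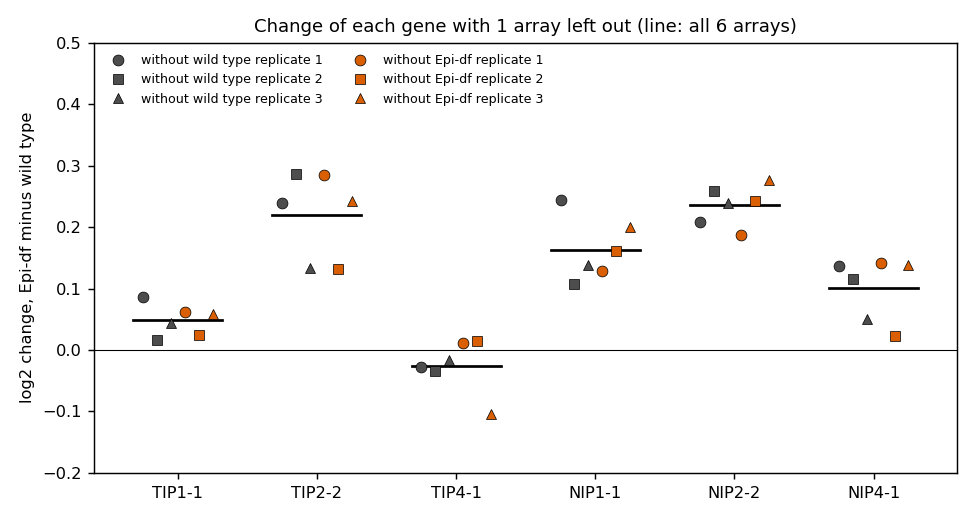
Log2 change of each of the 6 genes, Epi-df minus wild type, with all arrays (black line) and with 1 array left out (grey, a wild type array; orange, an Epi-df array; circle, square and triangle for replicates 1, 2 and 3). The change of NIP2-2 stays between 0.19 and 0.28, while that of TIP4-1 crosses 0.

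The 3 TIP probe sets lie near the top of the measured range, with 99.5% or more of the tested probe sets dimmer. The highest intensity on any array was 24975. Among the 379 tested probe sets with a mean of at least 8000, the 3 TIP genes included, none was called by limma, 8 had an adjusted p under 0.05 and 73 an unadjusted p under 0.05. The shares over all tested probe sets were 0.614% called, 1.79% at an adjusted p under 0.05 and 14.4% at an unadjusted p under 0.05. The largest absolute log2 change in this bright set was 0.65, and its median was 0.08, beside 0.09 over all tested probe sets. Whether the signals of these probe sets were compressed was not tested.

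TIP1-2, a vacuolar channel gene of the same gamma group as TIP1-1, was the tested TIP gene with the largest change. Its intensities were 325.2, 255.5 and 224.9 in wild type and 517.8, 576.6 and 513 in Epi-df. The groups were far apart, and the means of 268.5 ± 51.4 and 535.8 ± 35.4 (SD, n = 3) stood in a ratio of 2.00. On the log2(intensity + 16) scale the change was 0.97 ± 0.14 (limma adjusted p = 0.0184), just under the 2-fold threshold, so TIP1-2 was not called. With a pseudocount of 1 the change was 1.01 and the gene was called (limma adjusted p = 0.0193), as it was without wild type replicate 1, at 1.11 (limma adjusted p = 0.0237). Without wild type replicate 2 the change was 0.94 (limma adjusted p = 0.0867). The fitted change of TIP1-1 lay 0.92 ± 0.12 below that of TIP1-2. This pair was chosen after its values were seen, and the exact permutation p of 0.1 (two-sided) is the smallest possible here, so the difference is given as a description.

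Of the 10 TIP genes of the family list, 8 had a probe set and 6 were tested, 3 of them the genes above. The other tested ones were TIP1-2, TIP3-2 and TIP4-2. TIP3-2, of a group known from the storage vacuoles of seeds, was dim, with a change of 0.05 ± 0.12 (limma adjusted p = 0.920). TIP4-2 had a change of 0.01 ± 0.10 (limma adjusted p = 0.971). TIP2-1 and TIP3-1 lay under the filter, with means of 65.7 ± 9.57 and 61.2 ± 5.37 for TIP2-1 and 62.3 ± 3.41 and 77.4 ± 13.9 for TIP3-1 in wild type and Epi-df. A further TIP2-1 probe set, also under the filter, read 57.21 to 64.33 in wild type and 43.65 to 52.34 in Epi-df. Its change in a fit without the filter was -0.26 ± 0.08 (limma adjusted p = 0.226). None of the 6 tested TIP genes was called and 1 (TIP1-2) had an unadjusted p under 0.05, against 0.614% and 14.4% of all tested probe sets. The median change of the 6 was 0.05.

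Of the 13 NIP genes listed, 5 had a probe set and 4 were tested, NIP2-1 besides the 3 genes above. NIP3-1 is listed as DTE1, a boric acid channel gene whose loss is known to dwarf rice when boron is scarce. It lay under the filter, at 72.9, 80 and 85.3 in wild type and 86.3, 54.2 and 62.2 in Epi-df. Its change in a fit without the filter was -0.21 ± 0.13 (limma adjusted p = 0.667). All 4 tested NIP changes were above 0, with a median of 0.20 and none called by limma, and 2 (NIP2-1 and NIP2-2) had an unadjusted p under 0.05. Among all tested probe sets 53.9% had a change above 0, 0.614% were called and 14.4% had an unadjusted p under 0.05.

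NIP2-1 and NIP2-2 are the silicon channels Lsi1 and Lsi6. Lsi1 takes up silicic acid at the root surface, and Lsi2, an efflux carrier of another family, passes it on towards the xylem. NIP2-1 read 395.9, 368.9 and 446 in wild type and 533, 661.7 and 473.2 in Epi-df. The groups did not overlap, but the change of 0.44 ± 0.14 missed the threshold (limma adjusted p = 0.184). The changes of NIP2-1 and NIP2-2 differed by 0.20 ± 0.16 (exact permutation p = 0.4, two-sided), a pair also chosen after its values were seen. Lsi2 lay under the filter, at 20.7 to 23.5 in wild type and 20.8 to 26.3 in Epi-df.

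Since the RNA of bulk seedling samples was measured, fewer cells of a type and less RNA per cell cannot be told apart, and signals of organ markers are given beside the NIP values. The leaf genes measured were bright on all arrays, and the Rubisco gene RBCS stood at 23271 to 24975. It was the highest value of all on wild type replicate 2 and on Epi-df replicates 1 and 2. Whether its signal was compressed there was not tested. The 3 genes measured from a list of 9 leaf and photosynthesis names summed to 45599 to 46731 in wild type and 49296 to 55934 in Epi-df. Of these, 2 did not overlap and were higher in Epi-df, against 9.82% of all tested probe sets. Both were LHCP genes for chlorophyll-binding proteins. None was called by limma, and 2 had an unadjusted p under 0.05, against 14.4% of all tested probe sets. A further LHCP probe set had a change of 0.64 ± 0.11 (limma adjusted p = 0.0308), under the 2-fold threshold. Further RBCS probe sets overlapped between the groups. The 8 measured of 10 root markers, Lsi1 and Lsi2 among them, summed to 816.1 to 849.3 in wild type and to 943.5, 1076 and 2740 on Epi-df replicates 1, 2 and 3. Lsi1 is NIP2-1 itself, so this sum contains the NIP2-1 values it is set beside. It stood at 533 and 661.7 on Epi-df replicates 1 and 2, above the 368.9 to 446 of wild type. The groups overlapped for every root marker but Lsi1. In replicate 3 the sum was carried by NAS1 and NAS2, at 1069 and 688.1. On Epi-df replicates 1 and 2 NAS1 stood at 40.64 and 39.15 and NAS2 at 65.36 and 65.32, within their wild type ranges. IRT2, which lay under the filter, was also high on replicate 3, at 219.8. On that array YSL15 and AMT1-2 lay within their wild type ranges, and IRT1 and Lsi2 just above theirs. Of these root markers 4 were tested and none was called by limma, 1 (Lsi1) having an unadjusted p under 0.05. The dimmest on the root list was Lsi2, and without detection calls the presence of dim markers was not settled. The part of organ composition in the NIP2-1 and NIP2-2 values was not tested.

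Seed and meristem markers were read as well. The 7 measured of 10 seed genes, TIP3-1 and TIP3-2 included, summed to 2778 to 3018 in wild type and 3181 to 3535 in Epi-df. Of these genes 4 were tested, 2 with a change above 0 and 2 below, with a median of 0.02 and none called by limma (1, GLB1, at an unadjusted p under 0.05). Across all tested probe sets 0.614% were called and 14.4% had an unadjusted p under 0.05. GLB1, a seed globulin gene, made up most of the sum, at 1842 ± 108 and 2337 ± 138 (SD, n = 3; limma adjusted p = 0.0907). The glutelin gene GLUA2 was at 633.7 ± 50.8 and 570.6 ± 39.3 (SD, n = 3; limma adjusted p = 0.582). A further, dimmer GLUA2 probe set went the other way, at 79.6 ± 8.78 and 96.8 ± 15.8 (SD, n = 3; limma adjusted p = 0.446). The 2 measured of 3 meristem genes summed to 39.4 to 120.8 in wild type and 152.2 to 501.6 in Epi-df. The highest sum, on Epi-df replicate 1, held 268.2 of OSH1, which stood at 17.6 and 18.8 on Epi-df replicates 2 and 3 and lay under the filter. OSH71, the 1 tested, did not overlap between the groups and was not called (change 1.78 ± 0.36, limma adjusted p = 0.0614). The part of seed and meristem RNA in the TIP and NIP values was not tested.

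Over the whole aquaporin family 25 genes had a probe set and 21 were tested, 16 with a change above 0 and 5 below, with a median change of 0.05. The plasma membrane aquaporin gene PIP1-3 was the 1 called, at 1.02 ± 0.16 (limma adjusted p = 0.0273). By comparison, 53.9% of all tested probe sets had a change above 0 and 0.614% were called. The 9 tested PIP genes had a median change of 0.05, the same to 2 decimals as the TIP genes. The small basic intrinsic protein genes, of channels known from inner membranes, had changes of 0.11 ± 0.07 (SIP1-1) and -0.19 ± 0.08 (SIP2-1), with limma adjusted p of 0.615 and 0.351.

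**Figure D4:**
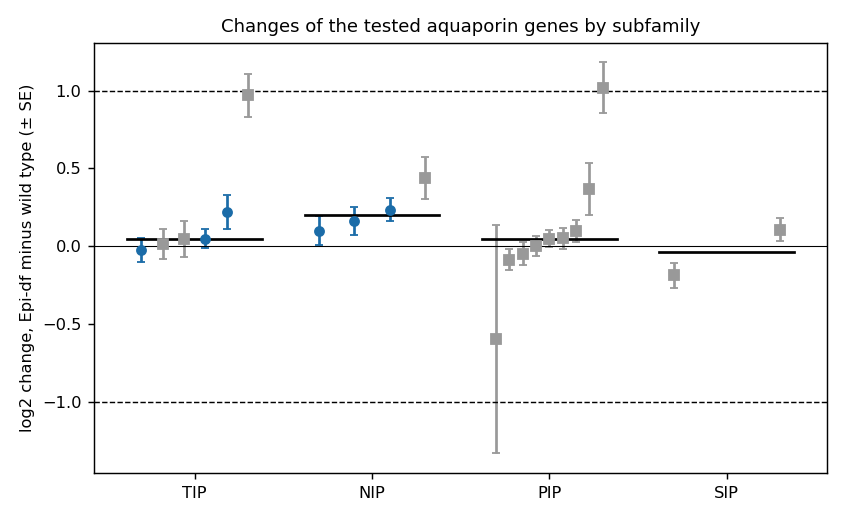
Log2 change, Epi-df minus wild type on the log2(intensity + 16) scale, of each tested aquaporin gene by subfamily, with the SE as bars and the median of each subfamily as a black line (blue circles, the 6 genes described here; grey squares, other genes; dashed lines, a 2-fold change). Most genes lie near 0, and TIP1-2 (0.97) and PIP1-3 (1.02) lie near or above the upper dashed line.

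Other transporters of the vacuole membrane share the TIPs' location. Of a list of 24, 8 had a probe set, all 8 were tested and none was called by limma (1, VIT1, at an unadjusted p under 0.05), with 4 changes above 0 and 4 below and a median of 0.02. Across all tested probe sets 0.614% were called and 14.4% had an unadjusted p under 0.05. The 3 with the highest intensity were the zinc transporter gene MTP1 at -0.10 ± 0.08 (limma adjusted p = 0.652), the cation channel gene TPC1 at 0.24 ± 0.11 (limma adjusted p = 0.391) and VIT1. VIT1, a transporter gene for iron and zinc, read 1467, 1631 and 1382 in wild type and 951.5, 1083 and 832.3 in Epi-df. Its groups did not overlap, and its change of -0.64 ± 0.12 had a limma adjusted p of 0.0426 but stayed under the 2-fold threshold. PT8, a phosphate transporter gene that also carries arsenate, was the 1 measured of 6 genes listed as partners in boron and arsenic transport, with a change of -0.01 ± 0.17 (limma adjusted p = 0.985).

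Genes with a pattern like that of a member were to be named where the member's log2 values spanned at least 1 over the 6 arrays. The spans were 0.16 to 0.57, so 0 of 6 members met this and no such gene is named.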

How the data were processed

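Biotin-labelled cRNA of each replicate was measured on 1 Affymetrix rice array, per the labels' protocols. The deposited values are probe set intensities on a linear scale, made by the authors with MAS5, per the submitters' processing notes. The version and scaling target are not given in the sources used here. Groups and replicate numbers came from the sample titles. From the 57258 probe sets that are not controls, those with a mean intensity under the 40th percentile (81.1) were left out. The others were put on the log2(intensity + 16) scale and fitted with limma 3.58.1, run in R 4.3.3 (intensity trend, two-sided, no replicate block), with p-values adjusted over all of them. Column medians were close, so no scaling was added.

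Genes were named through the platform annotation and RefSeq gene names (assembly ASM3414082v1), which paired 22436 probe sets with 1 gene, 95 with several and 34727 with none. For gene lists the brightest probe set stood for its gene. Members, lists and the rule for named genes (members, called list genes or else the 3 brightest) were chosen with earlier results of these data known. Genes named beyond this rule (further TIP, NIP, SIP and marker genes) are other family members or markers. NIP3-1, LHCP, NAS1, NAS2, GLB1, GLUA2, OSH1 and OSH71 were picked out after their values were seen. A simulated data set with known changes served to check the fit. Same-numbered arrays of the 2 groups deviated together with correlations of 0.13, 0.33 and -0.06, so the numbers were not treated as pairs. Alternatives were other pseudocounts, filters, scalings and spread models, a replicate block, leaving out each array, other probe sets and no fold threshold.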

Additional observations from a re-analysis of the deposited data

How the results depend on the processing

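None of the 6 TIP and NIP genes was called under any alternative run. Of 91 fits of a member under an alternative, 88 kept their direction and 3 turned it, all of TIP4-1: 0.012 without Epi-df replicate 1, 0.015 without replicate 2 of that line and 0.10 with its other probe set. The count of kept directions includes fits that could not turn. Fits with another filter, another spread model or the replicate block return the change of the main fit and alter only its standard error and p. When 1 array was left out, changes lay between 0.02 and 0.09 for TIP1-1, 0.13 and 0.29 for TIP2-2, -0.10 and 0.015 for TIP4-1, 0.11 and 0.24 for NIP1-1, 0.19 and 0.28 for NIP2-2, and 0.02 and 0.14 for NIP4-1. The limma adjusted p of NIP2-2 lay between 0.146 and 0.514 over its alternatives. The count of called probe sets, 211 with all arrays, was 111 without wild type replicate 1, 117 without wild type replicate 2 and at most 260 with 1 array left out, 324 with the replicate block and 614 without a fold threshold. The causes were not tested. The replicate block changed no call of a member; the adjusted p of TIP2-2 was 0.211 with it. Same-numbered arrays had correlations of 0.13, 0.33 and -0.06 and did not all correlate best with their own number. The alternatives for TIP1-2 were added after its values were seen. With the filter at the 60th percentile NIP4-1 was not tested. Storey's q was not run.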
